A study of Mus musculus with 12 samples.

Results

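Cholesterol synthesis was examined in tibialis anterior muscle, a fast muscle of the lower hindlimb, through 8 genes chosen by symbol: Hmgcs1, Idi1, Fdps, Fdft1, Sqle, Lss and Cyp51, which encode enzymes of the pathway, and Srebf2, which encodes its transcription factor SREBP2. All 8 were found among the 24421 entries of the count table, and all 8 were among the 13937 genes tested. RNA sequencing compared 2 strains, 6 wild-type C57Bl/6 mice (WT) and 6 mice of the mdx/mTR strain. Every mouse was male, untreated as far as the labels say, and at 4 months of age. In mdx mice dystrophin, encoded by Dmd, is lost, and mTR is the usual name of the telomerase RNA gene Terc in mice. The labels give no background strain or generation for mdx/mTR, so the mutations and the genetic background cannot be told apart. They name no litters or cohorts either, so p-values measure the spread between these samples.

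Cells make cholesterol from acetyl-CoA. Hmgcs1 forms HMG-CoA, from which mevalonate is made, and Idi1 and Fdps lead on to farnesyl diphosphate, from which ubiquinone, dolichol and protein prenyl groups also branch. Fdft1 (squalene synthase) commits the flow to sterols, Sqle and Lss make lanosterol, and Cyp51 starts its conversion to cholesterol. When sterols in the endoplasmic reticulum are low, SCAP carries SREBP2 to the Golgi, where proteases release the part that activates these genes. INSIG proteins hold the complex back when sterols are plentiful.

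Srebf2 and Hmgcs1 are shown by their upstream sequences because they were the called genes with a RefSeq promoter window here. They moved in opposite directions. The windows hold 250 bases before the annotated start (GRCm38.p6, plus strand), at chr13:119690101-119690350 for Hmgcs1 and chr15:82147019-82147268 for Srebf2. Capitals mark ATTGG, the reversed form of the CCAAT box that the factor NF-Y is known to bind, and TCACCCCA with any following C, a form of the sterol regulatory element that SREBPs are known to bind.
Hmgcs1: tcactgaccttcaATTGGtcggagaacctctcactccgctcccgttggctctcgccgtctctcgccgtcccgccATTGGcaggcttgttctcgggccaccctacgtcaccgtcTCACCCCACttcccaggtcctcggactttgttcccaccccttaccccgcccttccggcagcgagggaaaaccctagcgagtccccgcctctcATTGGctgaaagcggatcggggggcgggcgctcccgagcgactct
Srebf2: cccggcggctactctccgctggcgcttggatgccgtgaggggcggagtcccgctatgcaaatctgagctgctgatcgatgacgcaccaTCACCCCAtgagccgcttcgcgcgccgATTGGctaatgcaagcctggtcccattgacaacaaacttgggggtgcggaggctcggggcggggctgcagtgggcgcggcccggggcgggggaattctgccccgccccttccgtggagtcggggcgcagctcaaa
The longer motif TCACNCCAC occurred in the Hmgcs1 window (at position -137 from the start) and in 1.24% of the 32851 windows of 300 bases in the table, counting both strands. The overlapping shorter motif TCACCCCA, added after the sequences had been seen, occurred in both windows (at -137 in Hmgcs1 and -162 in Srebf2) and in 1.56% of all windows. Because of that late choice, its presence in both is no test of how rare it is. Neither of these motifs occurred in the windows of Idi1, Lss or Cyp51. Among genes of the other lists below, TCACCCCA occurred in a window of Apoe (at -213) and TCACNCCAC in that of Stard3 (at -211). ATTGG or its reverse CCAAT occurred in all 5 windows found for the 8 genes (Hmgcs1, Idi1, Lss, Cyp51 and Srebf2) and in 37.4% of all windows. A match describes the letters only.

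The WT libraries held 36903560 to 40981012 counts and the mdx/mTR libraries 35136327 to 60330410. Levels are given in CPM, counts scaled to the library total after the trimmed mean of M-values (TMM) correction. Dmd checks the labels: its mean was 237 ± 6.90 CPM for WT against 46.8 ± 7.20 CPM for mdx/mTR (SD, 6 mice each), without overlap. Terc had 2 counts over the 12 libraries together and checks nothing. Muscle fibre markers summed to 132100 to 158900 CPM in WT and 102800 to 141700 CPM in mdx/mTR, the largest sum of the marker lists in both groups. Of these 6 genes, 1 was higher (Mylpf) and 1 lower (Myh4). Macrophage markers summed to 61.5 to 101 CPM in WT and 135 to 363 CPM in mdx/mTR, with 7 of 8 genes higher. Fibroblast markers summed to 874 to 1598 and 2202 to 4409 CPM, with 5 of 6 higher. Endothelial markers (3 of 5 lower) and Schwann cell markers (4 of 6 lower) had summed ranges of 402 to 536 against 320 to 426 CPM and 72.1 to 88.4 against 52.0 to 69.0 CPM. These counts are at an edgeR adjusted p below 0.05, at which 25.0% of all tested genes were higher and 23.4% lower. The sums were highest in mdx/mTR replicate 5 for macrophage, fibroblast and myoblast markers. In these bulk libraries fewer cells of a type and less RNA per cell cannot be told apart, and the part of cell make-up in the results below was not tested.

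The 8 genes did not move as a unit. Srebf2 rose, Hmgcs1 and Fdft1 fell, and Idi1, Fdps, Sqle, Lss and Cyp51 did not pass the test, in a comparison that asks which mRNAs differ between the strains. The 3 called genes were also those whose groups did not overlap. Over all tested genes, 48.3% were called at an adjusted p below 0.05 (edgeR quasi-likelihood test), 25.0% higher and 23.4% lower, and 25.2% had groups that did not overlap, so the count of 3 of 8 is no result about these genes as a set. The median log2 fold change of the 8 genes was -0.06, against 0.01 over all tested genes.

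**Figure D1:**
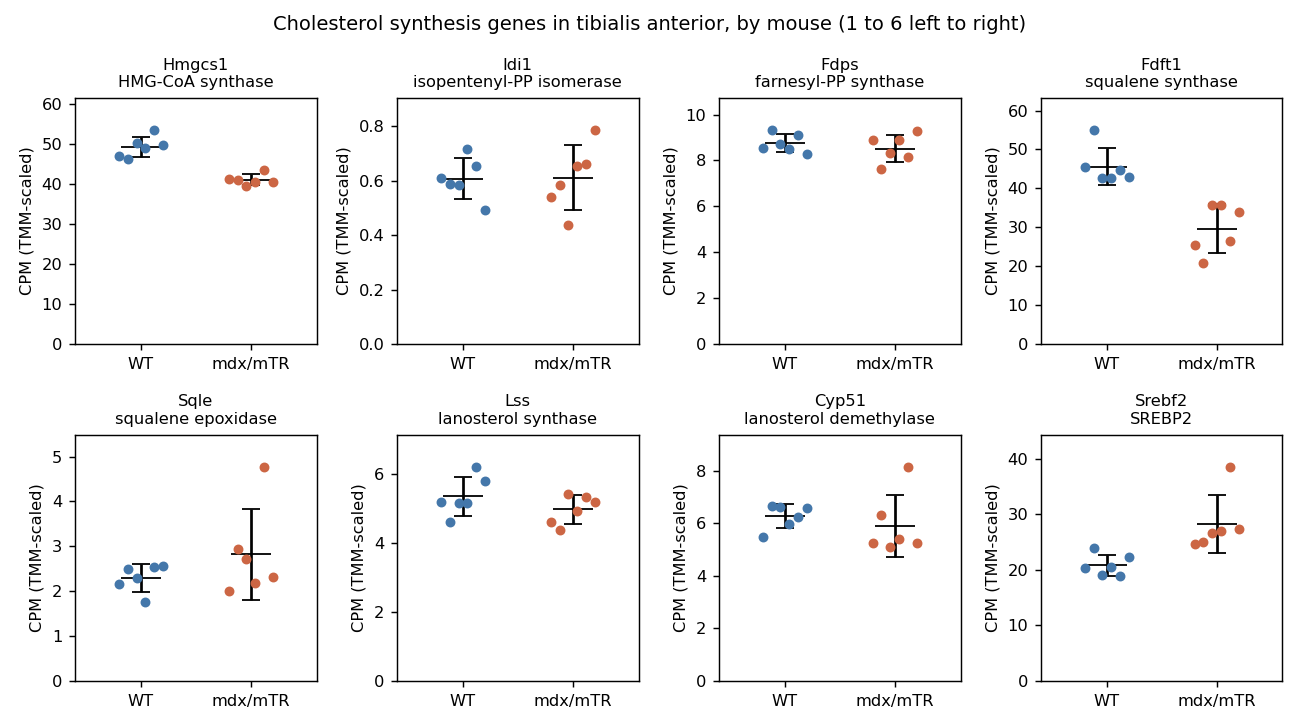
Level of each gene in CPM (y axis, from 0) in the 6 WT and 6 mdx/mTR mice; points are mice in the order of their replicate numbers, and bars give the mean ± SD. The mdx/mTR points of Srebf2 (24.6 to 38.5 CPM) lie above all WT points, those of Hmgcs1 (39.5 to 43.5 CPM) and Fdft1 (20.9 to 35.9 CPM) lie below, and the other 5 genes overlap.

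Srebf2, the regulator, had 18.9 to 23.8 CPM in WT (median 20.4) and 24.6 to 38.5 CPM in mdx/mTR (median 26.8). Every mdx/mTR mouse lay above every WT mouse, and mdx/mTR replicate 5 was well above the other mdx/mTR mice, which reached 27.4 CPM. The WT mean of 20.8 ± 1.92 CPM compared with 28.2 ± 5.20 CPM (SD, n = 6 each), and the fitted log2 fold change was 0.44 ± 0.10 (SE; edgeR adjusted p 0.0034; 95% interval 0.22 to 0.66). Without mdx/mTR replicate 5 the log2 fold change was 0.32 (edgeR adjusted p 0.0012). Srebf2 (chr15:82147269-82205379) shared none of its transcript's stretches of 50 bases with another annotated gene. Mir33, a miRNA gene that lies within Srebf2, was listed with 0 counts in all 12 libraries, which allows up to 3 counts each.

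Hmgcs1 (chr13:119690351-119708260), the cytosolic HMG-CoA synthase, had 46.3 to 53.4 CPM in WT (median 49.4) and 39.5 to 43.5 CPM in mdx/mTR (median 40.7). All mdx/mTR mice lay below all WT mice, and the mice within each group were close to each other. Its means were 49.2 ± 2.57 and 41.0 ± 1.36 CPM, 83.4% of WT by the fitted ratio, with a log2 fold change of -0.26 ± 0.04 (SE; edgeR adjusted p 2.9e-04). With scaling by library totals alone the log2 fold change was -0.10 (edgeR adjusted p 0.15), so the call for Hmgcs1 depended on the scaling. The antisense gene Gm48342 overlaps 557 bases of its exons; strand handling is not given in the sources used here, so their reads cannot be told apart.

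Idi1 (chr13:8885606-8892396) and Fdps (chr3:89093588-89101967) act between mevalonate and farnesyl diphosphate. Idi1 had 0.492 to 0.716 CPM in WT and 0.437 to 0.786 CPM in mdx/mTR, from 16 to 48 counts per library. Its groups overlapped, with a log2 fold change of 0.01 ± 0.17 (SE, edgeR adjusted p 0.95, 95% interval -0.36 to 0.39). At this depth, differences within that interval were not excluded. Fdps had 8.29 to 9.32 CPM in WT and 7.61 to 9.26 CPM in mdx/mTR. Its groups overlapped as well, with a log2 fold change of -0.04 ± 0.06 (SE; edgeR adjusted p 0.65; interval -0.17 to 0.10). Both levels are uncertain, because 30.5% of the 50-base stretches of Idi1 and 86.4% of those of Fdps occur in other annotated genes. With genes at the same locus left aside the shares were 21.3% and 51.1%.

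Fdft1 (chr14:63145150-63181687), the squalene synthase at the branch point to sterols, changed most among the 8 genes. It had 42.7 to 55.0 CPM in WT (median 43.8) and 20.9 to 35.9 CPM in mdx/mTR (median 30.2). All mdx/mTR mice lay below all WT mice, and WT replicate 2 was the highest of the 12. Its means were 45.6 ± 4.75 and 29.7 ± 6.27 CPM, 65.0% of WT by the fitted ratio, with a log2 fold change of -0.62 ± 0.12 (SE; edgeR adjusted p 0.0011). The exons of Fdft1 overlap 774 bases of Ctsb, the gene of the lysosomal protease cathepsin B, on the opposite strand. Ctsb rose from 417 ± 32.1 to 625 ± 82.4 CPM (difference of 0.58 on the log2 scale, SE 0.09, edgeR adjusted p 1.1e-04), the opposite direction to Fdft1, and 30.7% of the stretches of Fdft1 occur in other genes (10.9% without Ctsb). Within WT, replicate 2 was the highest mouse for both Fdft1 and Ctsb. Within mdx/mTR the highest mice differed. Fdft1 was highest in replicate 4 (35.9 CPM, with Ctsb at 608 CPM) and lowest in replicate 2 (20.9 CPM, with Ctsb at 670 CPM). Ctsb was highest in replicate 5 (736 CPM), where Fdft1 had 26.5 CPM. The part of the exon overlap in the Fdft1 counts was not tested.

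Sqle (chr15:59315092-59331193), the squalene epoxidase, had 1.75 to 2.57 CPM in WT (median 2.39) and 2.005 to 4.77 CPM in mdx/mTR (median 2.52). The groups overlapped, and mdx/mTR replicate 5 was the highest mouse by a wide margin. Its log2 fold change was 0.29 ± 0.20 (SE; edgeR adjusted p 0.24; interval -0.13 to 0.71) and 0.07 without mdx/mTR replicate 5 (adjusted p 0.68). Lss (chr10:76531565-76557139), the lanosterol synthase, had 4.61 to 6.22 CPM in WT and 4.38 to 5.41 CPM in mdx/mTR, a log2 fold change of -0.11 ± 0.09 (edgeR adjusted p 0.33; interval -0.30 to 0.08). Cyp51 (chr5:4080674-4104697), the lanosterol demethylase, had 5.50 to 6.67 CPM in WT and 5.09 to 8.16 CPM in mdx/mTR, a log2 fold change of -0.08 ± 0.11 (edgeR adjusted p 0.57; interval -0.33 to 0.16). For Cyp51, 4 of the 6 mdx/mTR mice lay below all WT mice while replicate 5 lay above them all.

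Expressed per kilobase of the longest coding transcript, the WT levels ran in the order Hmgcs1 (14.2 ± 0.741 CPM per kb), Fdft1 (12.3 ± 1.28), Fdps (6.33 ± 0.283), Srebf2 (4.10 ± 0.378), Cyp51 (1.596 ± 0.117), Lss (1.148 ± 0.121), Sqle (0.835 ± 0.113) and Idi1 (0.201 ± 0.0248; SD, n = 6). In WT the ranges of Hmgcs1 and Fdft1 overlapped, and every other pair of neighbours in that order was apart. In mdx/mTR the order was the same, but Hmgcs1 (11.8 ± 0.393 CPM per kb) stood apart from Fdft1 (8.03 ± 1.70). The mdx/mTR ranges of Fdft1, Fdps (6.16 ± 0.436) and Srebf2 (5.55 ± 1.02) overlapped from one neighbour to the next. Those of Lss (1.07 ± 0.0897) and Sqle (1.02 ± 0.368) also overlapped. The stretches that Idi1, Fdps and Fdft1 share with other genes, given above, leave their places in this order uncertain. Lengths of other transcripts were not tried.

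A ratio of 2 genes within a mouse does not depend on how libraries are scaled, so all 28 ratios between the 8 genes were compared, a step added after the values had been seen. Relative to Srebf2, Fdft1 stood at 2.20 ± 0.161 in WT and 1.08 ± 0.272 in mdx/mTR (ratio of counts; SD, n = 6 each), a log2 difference of -1.07 (two-sided exact permutation p 0.00216, the smallest this design can give; adjusted over the 28 ratios 0.0101). Hmgcs1 over Srebf2 went from 2.39 ± 0.310 to 1.49 ± 0.193, a log2 difference of -0.69 with the same exact p and adjusted p. Fdps over Srebf2 (0.423 ± 0.0405 in WT, 0.310 ± 0.0521 in mdx/mTR) and Cyp51 over Srebf2 (0.303 ± 0.0301 and 0.211 ± 0.0228) were also without overlap. The ratios of all 7 enzymes share Srebf2, whose rise of 0.44 on the log2 scale alone would lower each of them by that much, so the lower ratios of Idi1, Fdps, Lss and Cyp51, which were not called by themselves, say nothing more about those enzymes. Sqle over Srebf2 was 0.111 ± 0.0165 in WT and 0.0984 ± 0.0189 in mdx/mTR (log2 difference -0.19, exact permutation p 0.214, adjusted p 0.300).

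Ratios to Fdft1 likewise restate its fall, which had been seen before they were formed, and they carry the sequence overlaps of Fdft1 and Fdps given above. Sqle over Fdft1 was 0.0410 to 0.0600 in WT and 0.0610 to 0.180 in mdx/mTR, without overlap (log2 difference 0.88, exact permutation p 0.00216, adjusted p 0.0101). Fdps over Fdft1 was 0.170 to 0.204 in WT and 0.234 to 0.364 in mdx/mTR, also without overlap (log2 difference 0.60, same exact p). Lss over Cyp51, enzymes that act one after the other, was 0.859 ± 0.111 in WT and 0.864 ± 0.161 in mdx/mTR, a difference the test did not call (exact permutation p 0.985). In all, 14 of the 28 ratios had an adjusted p below 0.05. The only ratio among them without Srebf2, Hmgcs1 or Fdft1 was Sqle over Cyp51 (exact permutation p 0.0173, adjusted p 0.0404). With any 1 mouse left out the number fell to between 8 (without WT replicate 1) and 11, where the smaller group also raises the smallest exact p.

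**Figure D2:**
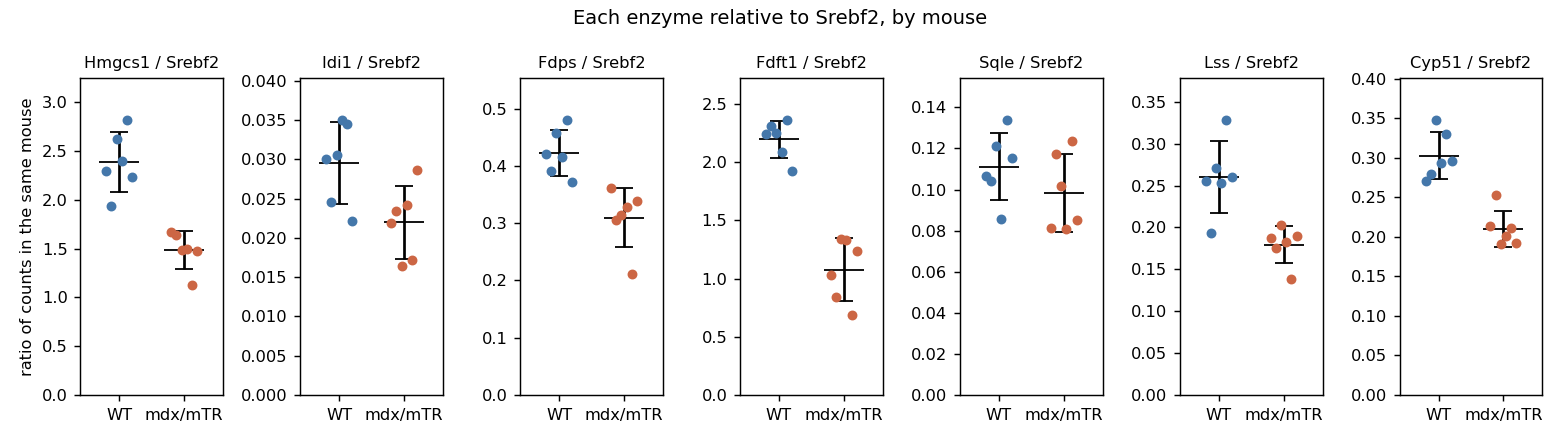
Ratio of each enzyme's counts to those of Srebf2 in the same mouse (y axis, from 0) in 6 WT and 6 mdx/mTR mice; points are mice and bars give the mean ± SD. For Fdft1 the WT mice sit between 1.93 and 2.37 and the mdx/mTR mice between 0.687 and 1.34, while for Sqle the groups overlap.

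The 8 genes were also compared from mouse to mouse within each group, over 56 relations (28 pairs in each group of 6). None had an adjusted exact permutation p below 0.05 for Pearson's r or Spearman's rho, and the smallest adjusted p were 0.544 and 0.948. With 6 mice per group the smallest exact p is too large for a single pair alone to pass this adjustment. The lack of calls therefore says little on whether the genes vary together. Of the 56 relations, 4 had an unadjusted p below 0.05 for r and 0 for rho. The highest r was that of Sqle with Cyp51 in mdx/mTR (r 0.921, exact permutation p 0.0347, adjusted p 0.544; rho 0.600, exact permutation p 0.242, adjusted p 0.948). Without the 2 mice farthest from the median of Sqle it was 0.547, but dropping extreme mice narrows the range and can itself lower r. The other 3 were Hmgcs1 with Cyp51 in mdx/mTR (r 0.904, exact permutation p 0.0306) and, in WT, Hmgcs1 with Lss (0.859, 0.0333) and Fdps with Fdft1 (0.773, 0.0389), and without the 2 farthest mice these r were 0.148, 0.314 and 0.152. Between Srebf2 and the 7 enzymes the WT mice gave r of -0.681 to 0.679 and the mdx/mTR mice r of -0.163 to 0.869, the last for Sqle, for which r was -0.854 without the 2 mice farthest from its median. The SD as a share of the mean was larger in mdx/mTR than in WT for Sqle (35.96% against 13.5%), Fdft1 (21.1% against 10.4%), Cyp51 (19.95% against 7.36%), Idi1 (19.5% against 12.4%), Srebf2 (18.4% against 9.23%) and Fdps (7.07% against 4.47%), and smaller for Lss (8.41% against 10.5%) and Hmgcs1 (3.32% against 5.22%). Without mdx/mTR replicate 5 the mdx/mTR shares were 15.7% for Sqle, 8.85% for Cyp51, 4.77% for Srebf2, now below WT, and 1.59% for Hmgcs1, so the spreads of Sqle, Cyp51 and Srebf2 rest on that mouse. In WT the shares were 3.04% for Fdft1 without replicate 2, 7.09% for Sqle without replicate 4 and 4.60% for Cyp51 without replicate 1. The spreads of the groups were not tested against each other.

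Genes were ranked by Pearson's r, over the 12 mice, with the mean of the 7 enzymes, after the group mean of each gene was removed. Pairs of these enzymes had a median r of 0.20 in WT and 0.09 in mdx/mTR, so their mean need not stand for each enzyme. The first 10 of 13929 genes were Wwp2 (0.955), Cln3 (0.938), Pgm3 (0.933), Plcg2 (0.892), Npas1 (0.885), Nfasc (0.883), Anxa7 (0.880), Pop1 (0.875), Prg4 (0.869) and Limd2 (0.867). Without mdx/mTR replicate 5, which had the highest enzyme mean of its group, their r ran from 0.710 (Limd2) to 0.914 (Wwp2). Of 67 tested genes of the other pathway lists, 2 (2.99%) were among the first 100, Acat2 (0.807) and Cyp7b1 (0.806), where the first 100 are 0.718% of all ranked genes; 2 genes are too few to set the lists apart. All values of a mouse share its library, so these r are a description.

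The other enzymes of the pathway were a list of 15 genes, all tested, of which 5 rose and 2 fell, with a median log2 fold change of 0.10 (over all tested genes 25.0% rose, 23.4% fell and the median was 0.01). Ebp, a sterol isomerase, rose from 6.24 ± 0.314 to 8.201 ± 0.774 CPM (0.39, edgeR adjusted p 6.6e-04). Erg28, listed under an older symbol and known as a scaffold of sterol enzymes, rose by 0.47 on the log2 scale (adjusted p 0.0040). Msmo1 (0.38, adjusted p 0.046) and Mvd (0.33, adjusted p 0.036) passed narrowly. The number higher was 3 in place of 5 without WT replicate 1, 4 or 6 or without mdx/mTR replicate 3.

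The 2 that fell were Sc5d, a late sterol desaturase, from 27.2 ± 1.45 to 21.0 ± 1.58 CPM (log2 fold change -0.38, edgeR adjusted p 1.6e-04), and Lbr, from 36.2 ± 2.42 to 28.2 ± 1.81 CPM (-0.36, adjusted p 2.0e-04). Lbr encodes the lamin B receptor, a nuclear envelope protein with sterol reductase activity. Mvk, Pmvk, Nsdhl, Hsd17b7, Dhcr7, Tm7sf2 and Acat2 did not pass, with log2 fold changes from -0.19 (Acat2) to 0.24 (Tm7sf2).

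**Figure D3:**
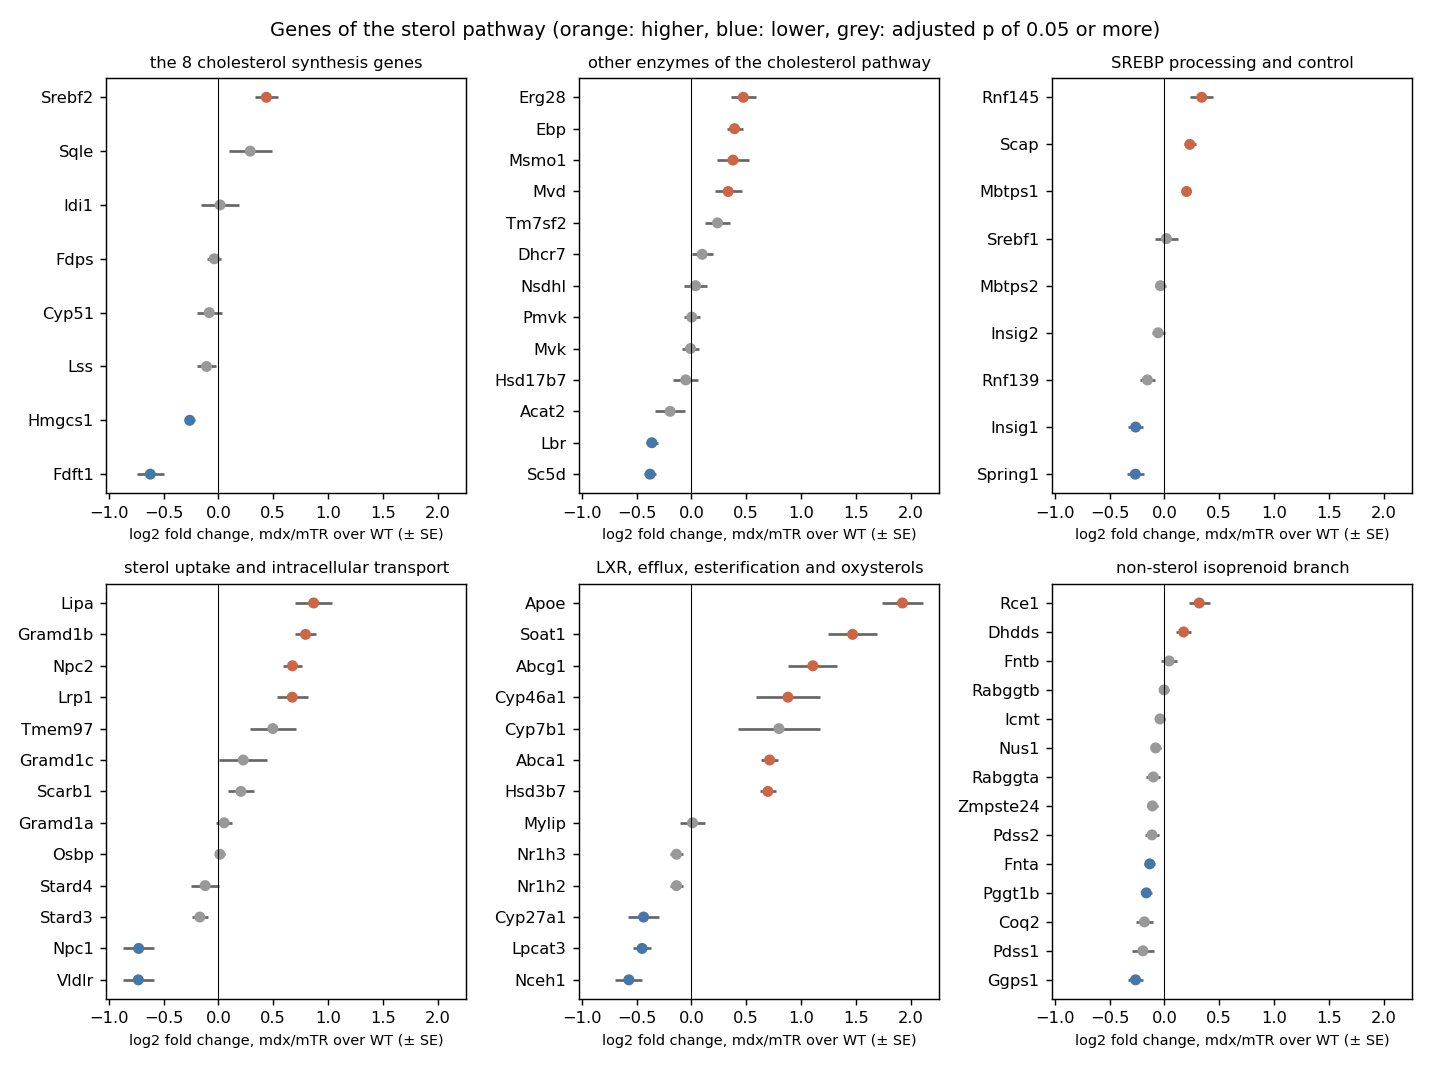
Change between the groups on the log2 scale, mdx/mTR relative to WT (x axis; bars are SE), for the tested genes reported from the 6 lists; orange genes were higher and blue genes lower at an edgeR adjusted p below 0.05, and grey genes did not pass. Fdft1 (-0.62) lies lowest among the 8 cholesterol synthesis genes and Srebf2 (0.44) highest, and the list of LXR, efflux, esterification and oxysterol genes holds the widest range, up to Apoe at 1.92.

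Of 11 genes for the processing and control of SREBPs, 3 rose and 4 fell, with a median of -0.06, beside 25.0% and 23.4% of all tested genes. With library totals alone this list gave 4 higher and 1 lower, where 5596 of all 13937 tested genes were higher and 1560 lower. Scap, the escort of SREBPs, rose from 29.5 ± 1.98 to 34.7 ± 1.87 CPM (log2 fold change 0.23, edgeR adjusted p 0.0031), and Mbtps1, the first of the Golgi proteases, from 51.3 ± 2.76 to 59.1 ± 2.43 CPM (0.20, adjusted p 0.0024). Insig1, which retains the complex and is itself an SREBP target, fell from 11.1 ± 0.703 to 9.29 ± 0.752 CPM (-0.26, adjusted p 0.0062). Spring1 (-0.26, listed under an older symbol) also fell, and the ubiquitin ligase gene Rnf145 rose (0.34). Srebf1, the paralog that mainly drives fatty acid synthesis, had 44.0 to 56.6 CPM in WT and 34.7 to 59.6 CPM in mdx/mTR and did not pass (0.02 ± 0.10, SE; adjusted p 0.90).

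Of 15 genes for sterol uptake and transport inside the cell, 14 were tested, 5 rose and 2 fell (25.0% and 23.4% over all tested genes), with a median of 0.22. Lipa, the lysosomal acid lipase, rose from 11.2 ± 1.604 to 20.6 ± 5.97 CPM without overlap (log2 fold change 0.87, edgeR adjusted p 9.8e-04). Npc2, a lysosomal sterol carrier (0.67), the sterol transporter Gramd1b (0.79) and the receptor Lrp1 (0.67) rose too. Npc1, the membrane partner of Npc2, fell from 163 ± 35.5 to 98.7 ± 12.7 CPM (-0.73, adjusted p 8.6e-04), and Vldlr fell from 792 ± 169 to 478 ± 67.2 CPM (-0.73, adjusted p 9.1e-04). For both genes the groups overlapped, with WT replicate 2 (99.4 CPM for Npc1, 501 CPM for Vldlr) inside the mdx/mTR range.

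Genes of LXR, the sensor of oxysterols, and of efflux, esterification and oxysterol metabolism were listed as 14 genes, of which 13 were tested, 6 rose and 3 fell, where 25.0% of all tested genes rose and 23.4% fell. Their median of 0.70 was the value of a single gene, Hsd3b7, and with a filter of 1 CPM in 6 libraries it was 0.02 over 11 genes, below the 0.22 of the uptake list. Apoe, the apolipoprotein made by macrophages among other cells, rose from 72.4 ± 7.36 to 275 ± 96.8 CPM (1.92 ± 0.19 on the log2 scale, edgeR adjusted p 4.8e-06). Soat1, which esterifies cholesterol, rose from 2.40 ± 0.464 to 6.66 ± 2.48 CPM (1.47), and the efflux transporters Abcg1 (1.11) and Abca1 (0.71, from 34.96 ± 4.29 to 57.3 ± 5.02 CPM, adjusted p 1.4e-05) rose. Hsd3b7 rose by 0.70 on the log2 scale, but 97.5% of its stretches occur in other genes, and Cyp46a1 rose from a low level (0.263 to 0.490 CPM). Nceh1 (-0.57), Lpcat3 (-0.45) and Cyp27a1 (-0.44) fell, while the LXR genes Nr1h2 and Nr1h3 did not pass (-0.14 each, adjusted p 0.081 and 0.082). The macrophage marker sums given above did not overlap between the groups either, and their part in these rises was not tested.

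The non-sterol branch draws on farnesyl diphosphate before squalene is made. Of its 14 listed genes, 2 rose and 3 fell, with a median of -0.11, where 48.3% of all tested genes were called in either direction. Ggps1, which makes geranylgeranyl diphosphate, fell from 10.8 ± 0.812 to 9.00 ± 0.517 CPM (log2 fold change -0.26, edgeR adjusted p 0.0046). The prenyltransferase subunits Pggt1b (-0.17, adjusted p 0.017) and Fnta (-0.13, adjusted p 0.037) fell, and Rce1 (0.32, adjusted p 0.014) and Dhdds (0.18, adjusted p 0.043) rose. With library totals alone this list gave 4 higher and 0 lower, and the number higher was 1 without WT replicate 1, 2 or 6 or without mdx/mTR replicate 1, 2, 4 or 5.

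**Figure D4:**
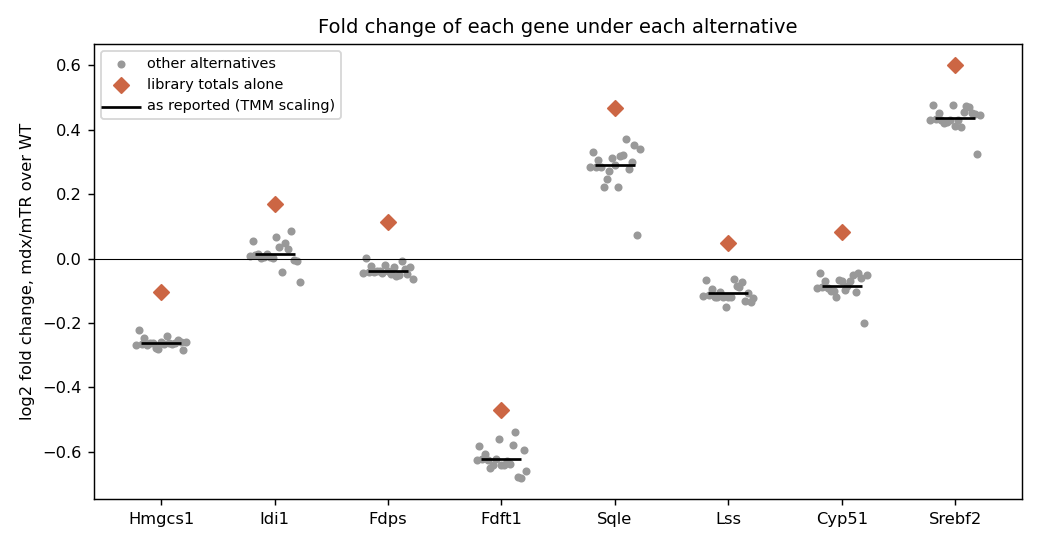
Change between the groups on the log2 scale, mdx/mTR relative to WT (y axis), for each gene as reported (black line), with scaling by library totals alone (orange diamonds) and under the other alternatives, single mice left out included (grey points). Srebf2 stays above 0 (0.32 to 0.60) and Fdft1 below 0 (-0.68 to -0.47) throughout, Hmgcs1 reaches -0.10, and Lss, Cyp51, Fdps and Idi1 lie on both sides of 0.

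In the authors' deposited table the genes among the 8 with an adjusted p below 0.05 are Srebf2, Hmgcs1 and Fdft1 as well. Its log2 fold changes are 0.42 for Srebf2 (adjusted p 3.5e-04), -0.27 for Hmgcs1 (3.8e-08) and -0.61 for Fdft1 (9.6e-06) in the authors' deposited table. For the other 5 genes the authors' deposited table lists values from -0.12 (Lss) to 0.26 (Sqle), with adjusted p from 0.25 to 0.98.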

How the data were processed

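RNA from the tibialis anterior of 12 male mice was sequenced, 6 WT and 6 mdx/mTR. The submitters' processing notes name FastQC, STAR, DESeq2 and mm10, with no roles or versions; the read counter, annotation and strand handling are not given in the sources used here. The authors deposited whole-number counts per gene symbol (24421 entries, 5131 with no count). A second table of the authors' own comparison has columns, per the file headers, for the mean signal after normalization, the log2 fold change and its error, a test score and p-values.

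The deposited counts went unchanged into edgeR 4.0.16 (R 4.3.3): filterByExpr (13937 genes, 99.97% of counts), TMM scaling, glmQLFit and glmQLFTest with group as the only term, and Benjamini-Hochberg adjustment over all tested genes at 0.05. The SE of a log2 fold change is its size over the square root of F, and intervals are 95%. Ratios and correlations used scipy 1.17.1 with two-sided exact permutation tests and a pseudocount of 0.5. Shared stretches, lengths and exon overlaps came from GENCODE M21, promoters and gene positions from RefSeq (GRCm38.p6, the assembly of mm10); 5 of the 8 genes have a promoter window. Alternatives were DESeq2 1.42.0, limma-voom (limma 3.58.1), other scalings and filters, a replicate block and each mouse left out. For spreads and ratios, leaving out mice was a step chosen after seeing the data. The procedure was tested on simulated data in which far fewer genes changed than were called here, so that test did not cover the scaling.

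The genes and lists were chosen with earlier results of these data known. Named genes are the 8 genes, Dmd, up to 6 called genes of each list by p, Insig1, Srebf1, Abca1 and the 10 genes most like the mean of the enzymes. Others were chosen after their values were seen. Some genes of the lists enter the counts and medians but are not reported here by name or value. Marker lists covered muscle fibre, macrophage, fibroblast, endothelial, Schwann, adipocyte (0 of 4 tested genes called) and satellite cell and myoblast genes (4 of 5 higher). Over all tested genes 48.3% were called and 25.0% were higher. A count of 0 allows up to 3 counts; intervals cover the spread between mice, and reads carried no molecular identifiers. Pairs of replicates all differed by more than sampling noise, and among the WT pairs those with replicate 2 differed most.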

Additional observations from a re-analysis of the deposited data

Results flagged for a closer look

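Each group of 6 mice was checked for a mouse whose gap to its neighbour exceeded Dixon's 95% critical share of the range of the group. Of 16 groups of values (8 genes in 2 groups), 3 had one, where chance gives 0.8. In mdx/mTR replicate 5, the level of Srebf2 was 38.5 CPM, where the rest of its group had 24.6 to 27.4 CPM (gap over range 0.802), and that of Sqle 4.77 CPM against 2.005 to 2.93 CPM (0.665). The same library had the highest sums of macrophage, fibroblast and myoblast markers of the 12, and the part of cell make-up in its values was not tested. In WT replicate 2, Fdft1 had 55.0 CPM and the rest of its group 42.7 to 45.6 CPM (0.766). Ctsb, whose exons overlap those of Fdft1, was also highest there among the WT mice (481 CPM against 395 to 416 CPM). Among the mdx/mTR mice the highest differed, replicate 4 for Fdft1 and replicate 5 for Ctsb. The part of that overlap in the Fdft1 value was not tested.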

How the results depend on the processing

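Srebf2 and Fdft1 kept their direction and call under all 20 alternatives, and Hmgcs1 under 19, the exception being library totals alone (-0.104, adjusted p 0.15). Under library totals alone the median of all genes was 0.17 in place of 0.01, 5596 genes were higher and 1560 lower (78.2% higher in place of 51.6%), and 1 of the 8 genes was called lower; Fdps (0.115), Lss (0.0497) and Cyp51 (0.0829), none of them called, turned positive. That scaling gave 1 lower among SREBP control genes, 8 higher for uptake and transport, and 4 higher and 0 lower in the isoprenoid branch. Fdps was 0.00252 with upper quartile scaling, which gave 1 lower in the isoprenoid branch. At an adjusted p of 0.01 the other enzymes had 3 higher, SREBP control 2 lower, and the isoprenoid branch 0 higher and 1 lower. Over all 13937 tested genes that threshold gave 2375 higher and 2246 lower, in place of 3479 and 3257. With limma-voom the other enzymes had 3 higher, and with no filter on low counts the isoprenoid branch had 1 higher. The cause was not tested. With each mouse left out in turn there were 1 higher and 2 lower of the 8 genes each time, 3 to 5 higher among the other enzymes (3 without WT replicates 1, 4 or 6 or mdx/mTR replicate 3), 4 to 5 lower for SREBP control, 5 to 7 higher for uptake, 5 to 7 higher and 3 to 4 lower for LXR and efflux, 1 to 2 higher and 2 to 4 lower in the isoprenoid branch, 3163 to 3562 genes higher and 2950 to 3254 lower, and 8 to 11 of the 28 ratios. Idi1, not called, ran from -0.0727 to 0.085 with a mouse left out, being -0.0403 without WT replicate 6 and -0.00415, -0.00785 and -0.0727 without mdx/mTR replicates 4, 5 and 6; with a filter of 1 CPM in 6 libraries it was not tested. Correlations of CPM without logarithm gave 0 past an adjusted p of 0.05 and 4 at an unadjusted p below 0.05. The labels do not say that equal replicate numbers pair mice. Deviations of libraries with the same replicate number correlated at -0.137 to 0.319, and only 2 of the 6 exceeded 0.1. Unequal numbers were not compared, so these values cannot decide whether mice were paired. With a replicate block Srebf2 was 0.42 (edgeR adjusted p 0.0097), Hmgcs1 -0.26 and Fdft1 -0.64, and the 8 genes had 1 higher and 2 lower. Depth limits Idi1, at 16 to 48 counts per library.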
